A study of Homo sapiens with 10 samples.

Results

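Mahlavu is a human hepatocellular carcinoma (HCC) cell line, and 1 RNA-seq library of it carries the label of a mutant fragment of paraspeckle component 1 (PSPC1), named Mut-NLS-CT131 in the study. This library was compared over all genes with the 1 Mahlavu mock library, so that 2 of the 10 samples of the series were used. A further Mahlavu library, labelled PSPC1-CT131, was set beside them and shares the same mock. PSPC1-CT131 is the proline-rich C-terminal region of PSPC1 fused to EGFP. In Mut-NLS-CT131 the nuclear localization sequence of that fragment is changed. The label of the library says no more than that a PSPC1 with a mutated localization sequence was overexpressed. The mock cells share the cell line but not the fragment, and no treatment, dose or time is named for any of the 3 libraries. Whether the sequenced cells were a single stable clone, a pool or transiently transfected is not given in the sources used here, so that differences between clones and effects of the fragment cannot be told apart. With 1 library a side there is no replicate and no test, and each value below describes these libraries.

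PSPC1 belongs to the DBHS family of RNA-binding proteins, which pair with each other and build paraspeckles, nuclear bodies formed on the long noncoding RNA NEAT1. The C-terminal region binds protein tyrosine kinase 6 (PTK6), a non-receptor kinase, and a nuclear localization sequence lets importins carry a protein into the nucleus. PSPC1 has been linked in HCC to epithelial-mesenchymal transition and to the response to TGF-beta and Wnt ligands, which is why genes of those pathways are described here next to the interferon, stress and cell cycle genes.

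The mock library held 22685424 reads on genes and the library labelled Mut-NLS-CT131 held 19085682. Reads fell on 24052 genes in mock and on 21628 in the labelled library. Levels are given as FPKM (fragments per kilobase of gene and per unit of sequencing depth) after quantile normalization, and differences as log2 fold changes of FPKM + 1, labelled library over mock, for the 12425 genes whose mean over both libraries reached 1 FPKM. Intervals in brackets are exact 95% intervals of the log2 ratio of read shares, before quantile normalization. They cover counting error only and can lie to one side of the FPKM value. The fold changes had a Spearman correlation of -0.10 across genes with GC content, against 0.56 for the library labelled PSPC1-CT131, so values of the latter library moved with base composition far more. Mahlavu lacked the defining products of liver cells. ALB, APOA1, TTR, FGB and TF had 0 reads in both libraries, and among the 10 liver markers SERPINA1 alone reached 1 FPKM, with 271 and 293 reads.

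PSPC1 itself, on chromosome 13 at 19674752 to 19783019 (GRCh38), was examined first, because reads from a fragment of its coding sequence would count towards it, together with those of the cells' own gene. It had 1582 reads in mock, 632 in the library labelled Mut-NLS-CT131 and 899 in the library labelled PSPC1-CT131. The level was 41.0 FPKM in mock and 19.1 FPKM in the labelled library, a log2 fold change of -1.06 (interval of the read ratio -1.21 to -0.94). The gene level was thus lower although the label names an overexpression. The study reports both EGFP-tagged fragments in Mahlavu cells by Western blotting. Reads of a fragment and of the cells' own gene were not told apart, so the label cannot be checked from this level. The directions below are those of the library labelled Mut-NLS-CT131. PTK6 had 541 reads in mock and 879 in the labelled library, at 6.37 and 14.4 FPKM, a log2 fold change of 1.06 (0.79 to 1.11). Both libraries with a fragment label held more PTK6 than mock, with 906 reads in the other one.

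The list of DBHS proteins and paraspeckle genes, PSPC1 itself included, was mostly lower. Of 20 genes listed, 18 could be compared, and MATR3 and PSPC1P1 were under the level filter. MATR3 has a second annotated gene over the same place, so counting may have left out reads as ambiguous. It had 32 and 17 reads. The lower side held 15, 6 of them by at least 2-fold, and 0 were higher by 2-fold, where 3.26% of all compared genes were lower and 3.16% higher by as much. Scaled by TMM or by DESeq2 size factors, 1 gene of the list was at least 2-fold lower. The list median was a log2 fold change of -0.58, against 0.00 over all compared genes. SFPQ, the DBHS partner of PSPC1 that also acts in splicing, went from 257 to 116 FPKM (log2 fold change -1.14). NEAT1, the RNA scaffold, had 5831 reads in mock and 2340 in the labelled library (log2 fold change -1.05). TAF15, an RNA-binding protein, had 2526 and 1029 reads (log2 fold change -1.10). NONO, the third DBHS protein, was at 427 and 297 FPKM (log2 fold change -0.52), and MALAT1, a nuclear noncoding RNA next to NEAT1 in the genome, was at 98.8 and 130 FPKM (log2 fold change 0.39). In the library labelled PSPC1-CT131 the same list had a median of -0.18, with SFPQ at -0.24, TAF15 at -0.06 and NEAT1 at -1.04.

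Over all compared genes, 798 (6.42%) differed by at least 2-fold between the libraries, 393 (3.16%) upward and 405 (3.26%) downward in the library labelled Mut-NLS-CT131. With FPKM as deposited, which has no quantile step and moves the median of all genes to a log2 fold change of -0.09, these counts were 287 and 602. Scaled to a common sum of 1000000, the median lay at -0.10 and the counts were 340 and 767, so that the balance of higher and lower genes depended on the scaling. The interval of the read ratio lay above no change for 385 of the 393 and below it for 395 of the 405. The whole interval was past 2-fold for 209 of the higher and 305 of the lower genes. At least 4-fold differences were seen for 41 higher and 37 lower genes. Of the 393 higher genes, 131 were also at least 2-fold higher in the library labelled PSPC1-CT131, and of the 405 lower genes 117 were also lower there. The shared mock library enters both of these comparisons. The share of all compared genes past 2-fold in the library labelled PSPC1-CT131 is not given here. Whether the overlap exceeds that share can therefore not be told from these counts.

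**Figure D1:**
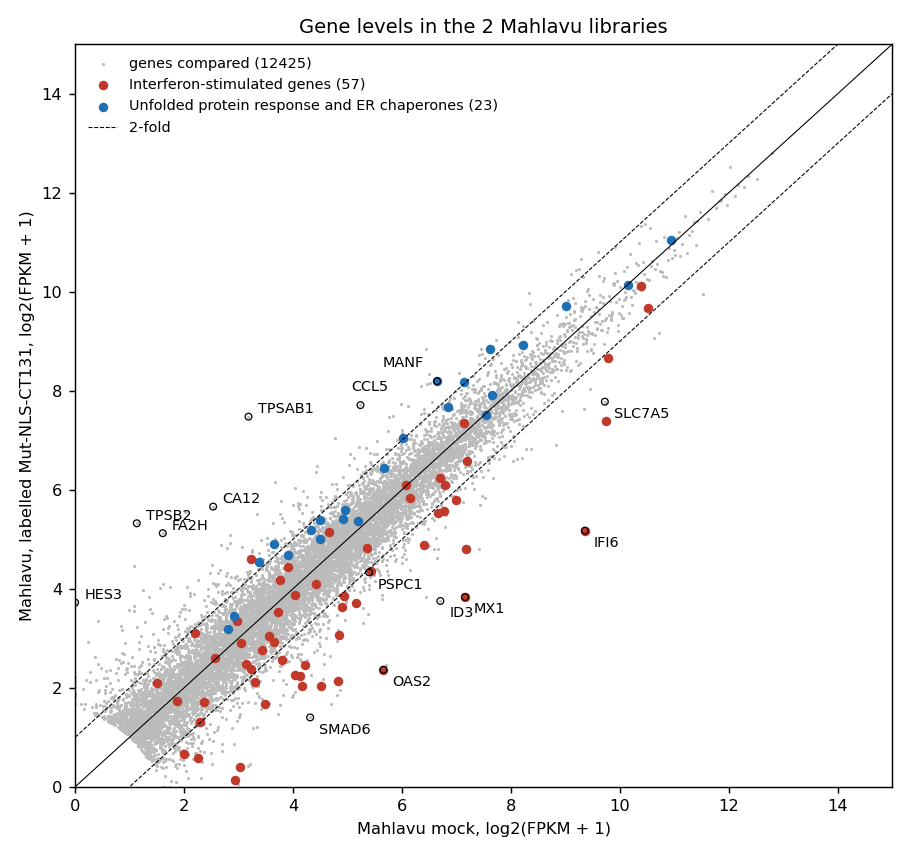
Level of each of 12425 compared genes in Mahlavu mock (x axis) and in the Mahlavu library labelled Mut-NLS-CT131 (y axis), both as log2(FPKM + 1), 1 library per axis. The solid line marks equal levels and the dashed lines 2-fold, red points are 57 interferon-stimulated genes and blue points 23 genes of the unfolded protein response. Most red points sit below the solid line (47 of 57) and most blue points above it (21 of 23).

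Among the 15 largest falls, the interferon-stimulated genes IFI6, MX1, OAS2, TRIM22, OAS1 and IFI44L stood beside genes of other kinds. C4BPB, the beta chain of the complement inhibitor C4b-binding protein, had 1338 reads in mock and 111 in the labelled library (log2 fold change -3.25). MATN2, a matrilin of the extracellular matrix, had 1210 and 103 reads (-2.96). ALPP, the placental alkaline phosphatase, had 354 and 2 reads (-2.93). The membrane protein gene TMEM130 had 1408 and 127 reads (-2.91), and the small GTPase gene RASL11A had 212 and 8 (-2.74). All of these were low in the library labelled PSPC1-CT131 too, where their log2 fold changes ran from -1.95 (RASL11A) to -2.83 (TMEM130). A second group was much lower in the library labelled Mut-NLS-CT131 and less so in the other. It held ID3, SMAD6, ATOH8 and SAMD11, with log2 fold changes of -2.95, -2.91, -2.76 and -3.02, against -0.21, -0.41, -0.80 and -0.52. SAMD11 overlaps NOC2L, MATN2 overlaps RPL30 and TRIM22 overlaps TRIM5 on the opposite strand. The kit did not mark strand, and reads of such pairs cannot be told apart.

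The 15 largest rises fell into the same kinds of group. TPSAB1, which encodes the mast cell protease tryptase, had 269 reads in mock, 3697 in the library labelled Mut-NLS-CT131 and 1977 in the library labelled PSPC1-CT131 (log2 fold changes 4.29 and 3.33). FA2H, which 2-hydroxylates fatty acids, had 100, 1011 and 421 reads (log2 fold changes 3.51 and 2.40). Carbonic anhydrase 12 (CA12), the matrix glycoprotein tenascin-C (TNC) and the chemokine gene CCL5 were likewise higher in both labelled libraries, with log2 fold changes of 3.12, 2.73 and 2.47 against 2.03, 2.67 and 2.24 in the library labelled PSPC1-CT131. AKR1B15, an aldo-keto reductase with a close paralog, gave 2.58 and 1.35.

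Further rises were large in the library labelled Mut-NLS-CT131 and not past 2-fold in the other. ABI3BP, an extracellular matrix protein, had 476 reads in mock, 1980 in the library labelled Mut-NLS-CT131 and 347 in the library labelled PSPC1-CT131, with log2 fold changes of 2.49 and 0.10. INHBE, which encodes the inhibin beta E chain of the TGF-beta superfamily, had 74, 405 and 66 reads (2.48 and 0.41). SIGLEC15, a sialic acid-binding receptor, had 95, 475 and 65 reads (2.46 and 0.15). DCDC2C, of the doublecortin domain family, had 71, 354 and 17 reads (2.48 and -0.77). A pair of noncoding RNAs completed this group, LINC00520 with 23, 162 and 23 reads (2.58 and 0.44) and HSD11B1-AS1 with 17, 105 and 26 (2.47 and 0.92). The latter overlaps G0S2 and HSD11B1 on the other strand.

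**Figure D2:**
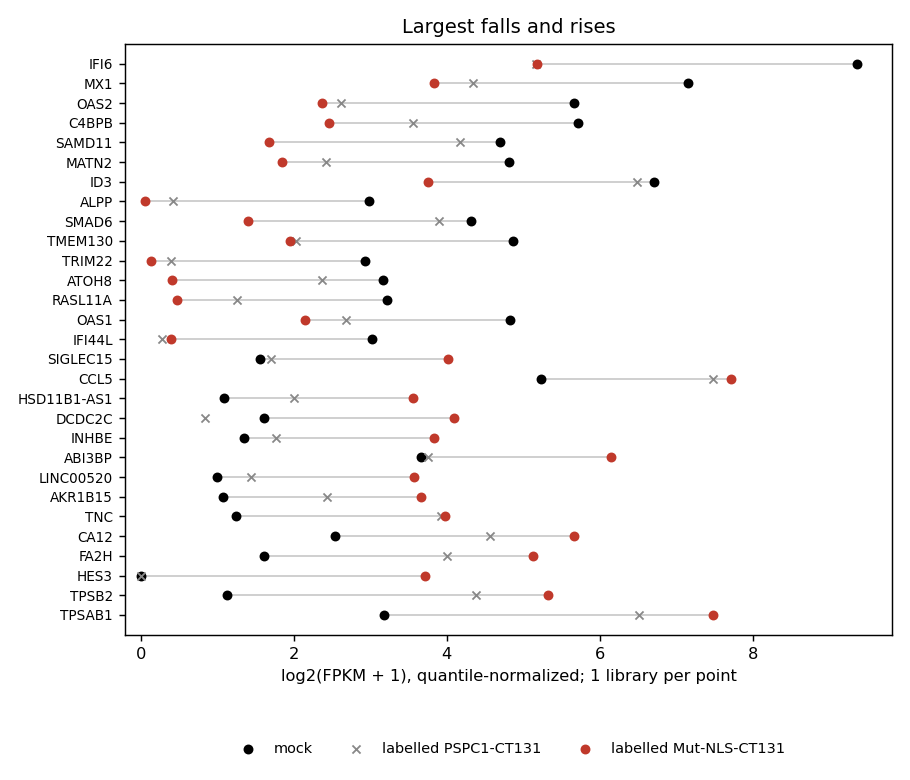
Levels, as log2(FPKM + 1), of the 15 genes with the largest falls (upper rows) and of 14 of the 15 with the largest rises (lower rows) between Mahlavu mock (black) and the library labelled Mut-NLS-CT131 (red). Grey crosses show the library labelled PSPC1-CT131, and each point is 1 library. For ID3, SMAD6, ABI3BP and SIGLEC15 the cross lies near mock, and for IFI6, TMEM130 and TNC it lies near the red point.

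Interferon-stimulated genes were the list with the lowest median. Interferons signal through JAK kinases to a complex of transcription factors, STAT2 and IRF9 among them, that binds interferon-stimulated response elements before genes of antiviral defence. Of 63 genes listed, 57 could be compared. A fall of 2-fold or more was seen for 28 and a rise of that size for 1, against 3.26% and 3.16% of all compared genes, and 47 of the 57 lay on the lower side. The median log2 fold change was -0.97. In the library labelled PSPC1-CT131 it was -1.01, with 29 genes at least 2-fold lower, relative to the same mock. The 6 genes under the level filter also had fewer or no reads in the labelled library. SAMD9 had 192 reads in mock and 16 in the labelled library, and ZBP1 had 0 in both.

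IFI6, a small antiviral membrane protein on chromosome 1 at 27666061 to 27672218 (GRCh38), had 11093 reads in mock, 625 in the library labelled Mut-NLS-CT131 and 592 in the library labelled PSPC1-CT131. Its level went from 654 to 35.1 FPKM, a log2 fold change of -4.18 (-4.02 to -3.78), the largest fall of all named genes. MX1, a GTPase that blocks replication of influenza and other viruses, had 4561, 422 and 537 reads, a log2 fold change of -3.32 (-3.33 to -3.04). The oligoadenylate synthases that activate RNase L were low too, OAS2 from 49.5 to 4.15 FPKM, OAS1 from 27.4 to 3.41 FPKM and OAS3 from 143 to 26.7 FPKM. Mock was the high library for each of these genes, and both labelled libraries were low.

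Genes of other antiviral steps followed with smaller differences. BST2, which tethers budding virions to the cell, went from 873 to 406 FPKM (log2 fold change -1.10), and IFITM1, which hinders viral entry, from 83.6 to 28.4 FPKM (-1.53). ISG15, a ubiquitin-like modifier, was at 126 and 54.6 FPKM (-1.19), its deconjugating enzyme USP18 at 8.92 and 3.36 FPKM (-1.19), and EIF2AK2, the kinase PKR, at 42.0 and 19.4 FPKM (-1.08). The transcription factors STAT2 and IRF7 lay closer to mock, with log2 fold changes of -0.30 and -0.14. Another transcription factor, BATF2, was lower at -1.35. The higher side held 10 of the list, and OASL, a relative of the synthases without their activity, was the one past 2-fold, with 469 reads in mock and 918 in the labelled library (1.37). IFIT2 gave 0.91 and ISG20 gave 0.59, while their neighbours in function IFIT1 and IFIT3 gave -0.67 and -0.33. IFIT1 and IFIT2 overlap LIPA on the other strand, and the IFITM genes are close copies of each other, so their values are less certain.

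The genes upstream were listed apart. Among 22 interferon receptors and signalling genes compared, 0 were past 2-fold in either direction and the median log2 fold change was -0.13, with 5 at least 1.5-fold lower and 2 at least 1.5-fold higher against 11.3% and 11.1% of all compared genes. IFNAR1 and IFNAR2, the 2 chains of the type I receptor, gave -0.21 and 0.00, and JAK1 gave 0.01. The signalling inhibitor SOCS1 was the highest at 0.94, and the lowest were the kinase IKBKE at -0.87 and the RNA editing enzyme ADAR at -0.85. Of 20 MHC class I and peptide loading genes, which interferon also induces, 0 were past 2-fold and the median was -0.09, with B2M at -0.09.

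**Figure D3:**
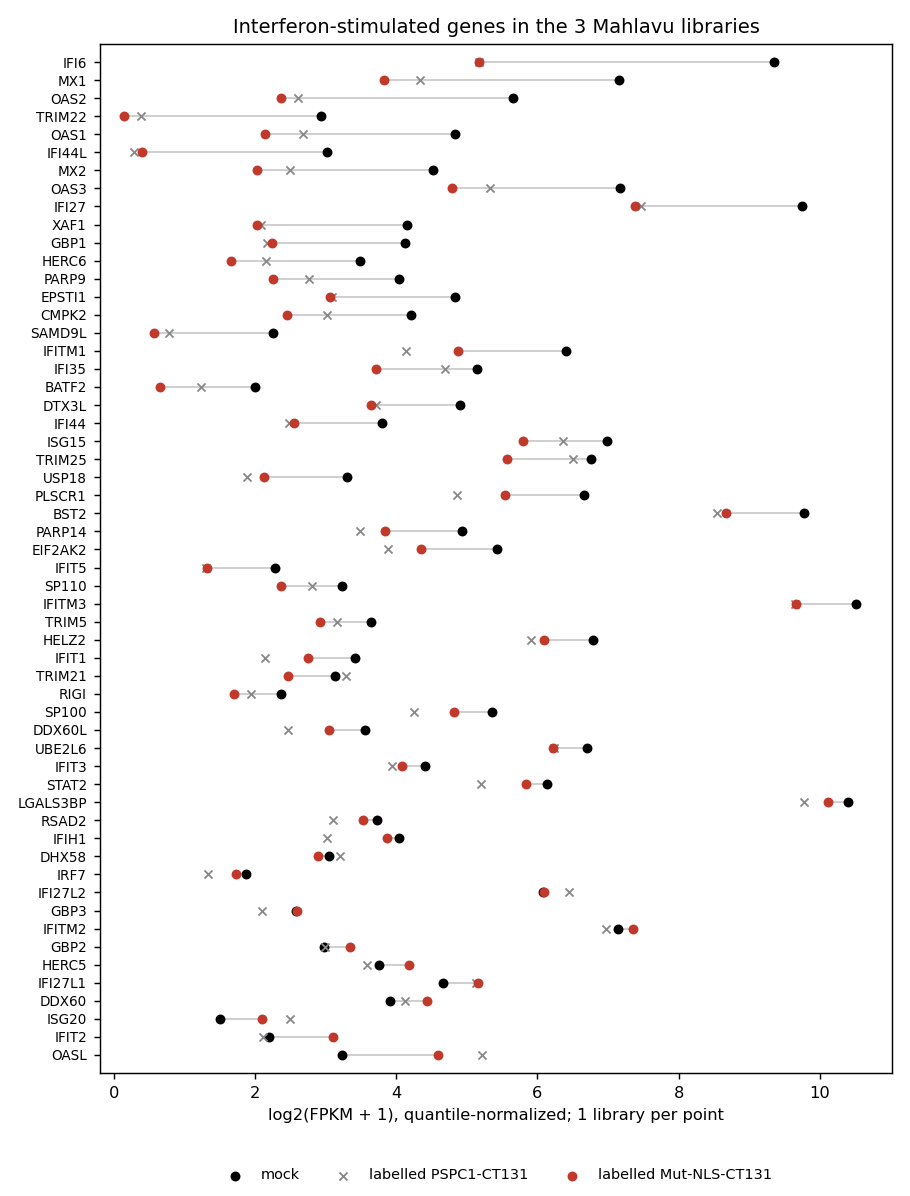
Levels, as log2(FPKM + 1), of 56 of the 57 interferon-stimulated genes compared, ordered from the lowest to the highest log2 fold change, in Mahlavu mock (black), in the library labelled Mut-NLS-CT131 (red) and in the library labelled PSPC1-CT131 (grey crosses), 1 library per point. In the upper 46 rows red lies left of black, and OASL in the last row is the one gene that is at least 2-fold higher.

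The sequences before these genes show the element through which interferon acts. RefSeq promoters were matched for 49 of the 63 genes, and the core, GAAA followed by any 2 bases and GAAA, was sought on both strands in the 250 bases before each start. It was present in 25 of 49, against 3.07% of 27305 promoters. A few examples (RefSeq, GRCh38.p14, 5′ to 3′ along the gene) follow, with the core or its reverse complement in capitals, from genes that were much lower, slightly lower and slightly higher.
IFI6 (log2 fold change -4.18), chr1:27672329-27672358, minus strand: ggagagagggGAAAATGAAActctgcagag
IFI27 (log2 fold change -2.36), chr14:94110631-94110660, plus strand: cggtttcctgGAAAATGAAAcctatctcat
IFIT3 (log2 fold change -0.33), chr10:89327865-89327894, plus strand: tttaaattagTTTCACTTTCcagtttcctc
DDX60 (log2 fold change 0.53), chr4:168318821-168318850, minus strand: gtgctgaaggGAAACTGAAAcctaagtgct
The core did not separate the genes by their difference. It was found before 12 of 24 matched genes that were at least 2-fold lower and before 11 of 22 under 2-fold.

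ID proteins and the inhibitory SMAD6 are classical targets of bone morphogenetic proteins (BMPs), ligands of the TGF-beta family. ID proteins lack a DNA-binding region and keep bHLH transcription factors off DNA, and SMAD6 blocks BMP receptors. ID3 had 2282 reads in mock, 267 in the library labelled Mut-NLS-CT131 and 1684 in the library labelled PSPC1-CT131. ID1 had 2312, 341 and 1840 reads, and ID2 had 651, 159 and 361. SMAD6 had 1250, 92 and 653 reads. Each of the 4 was thus lowest in the library labelled Mut-NLS-CT131, with log2 fold changes of -2.95, -2.60, -1.67 and -2.91, and from -0.41 to -0.09 in the other labelled library. ATOH8, a bHLH factor, had 472, 16 and 162 reads. BMP4, a ligand of this branch, went from 38.1 to 8.89 FPKM (log2 fold change -1.99) and was low in the library labelled PSPC1-CT131 as well (-1.48).

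The TGF-beta branch as a whole did not move one way. Among 31 TGF-beta response genes compared, 6 were at least 2-fold lower (3.26% of all compared genes) and 1 at least 2-fold higher, with a median of -0.28. The 6 were ID1, ID2 and ID3 with TPM1 (-1.68) and TAGLN (-1.56), which encode actin-binding proteins, and THBS1 (-1.48), a matrix protein that activates latent TGF-beta. TAGLN overlaps PCSK7. BHLHE40, a bHLH repressor, was the one higher gene, with 3802 and 9080 reads (1.64). Of 32 ligands, receptors and SMADs, 3 were higher and 2 lower by 2-fold, against 3.16% and 3.26% of all compared genes, with a median of 0.10. The higher ones were INHBE (2.48), LTBP4 (2.03), which binds latent TGF-beta, and GDF15 (1.29). TGFB1 gave 0.67, SMAD3 gave -0.85, and SMAD7, the inhibitor of the TGF-beta branch, gave -0.44.

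Genes of the unfolded protein response had the highest median of the lists with at least 18 genes compared. This response is set off by unfolded proteins in the endoplasmic reticulum (ER) and raises ER chaperones through ATF6, XBP1 and PERK. All 23 genes listed were compared. By at least 2-fold, 6 were higher and 0 lower, against 3.16% higher among all compared genes, 14 were at least 1.5-fold higher against 11.1%, and the median log2 fold change was 0.70. With FPKM as deposited, 3 were at least 2-fold higher. HSPA5, the chief ER chaperone BiP, went from 17014 to 32957 reads and from 196 to 458 FPKM (1.22). MANF, a secreted ER stress protein, went from 2341 to 5307 reads (1.55), and the ER co-chaperones DNAJB9 and DNAJC3 gave 1.25 and 1.17. HERPUD1, which serves ER-associated degradation, gave 1.04 and SDF2L1 gave 1.03. CALR and CANX, the lectin chaperones, stayed close to mock at 0.10 and -0.01. In the library labelled PSPC1-CT131 the list median was 0.28, with MANF at 0.08 and DNAJB9 at -0.55.

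The ER stress element, CCAAT followed by any 9 bases and CCACG, to which ATF6 binds, was sought in the same way and was present before 6 of the 23 genes and in 0.0806% of 27305 promoters. A few of them are shown because they span the range of the list, with the element or its reverse complement in capitals (RefSeq, GRCh38.p14, 5′ to 3′ along the gene).
HSPA5 (log2 fold change 1.22), chr9:125241385-125241414, minus strand: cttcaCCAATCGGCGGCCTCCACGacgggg
XBP1 (log2 fold change 0.76), chr22:28800597-28800626, minus strand: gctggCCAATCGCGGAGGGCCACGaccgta
CALR (log2 fold change 0.10), chr19:12938379-12938408, plus strand: ccacgCGTGGTCGACCATCATTGGtcggtg
One of the 6 genes that were at least 2-fold higher held the element, as did 5 of the 17 under 2-fold.

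The PERK arm acts through ATF4 and the death-associated factor DDIT3 (CHOP). ATF4 mRNA gave a log2 fold change of -0.11. DDIT3 had 318 reads in mock, 783 in the library labelled Mut-NLS-CT131 and 293 in the library labelled PSPC1-CT131, with log2 fold changes of 1.69 and 0.42, and overlaps MARS1 on the other strand. The 36 serine, one-carbon and amino-acid genes under ATF4 that were compared split, with 3 higher and 4 lower by 2-fold or more and a median of 0.01. Among all compared genes 3.16% were higher and 3.26% lower by as much. The core TGATGNAA of the element that ATF4 shares with CEBP factors was before 5 of 33 matched genes of the list and in 3.19% of all promoters. Both chains of the large neutral amino acid transporter were among the lower ones. SLC7A5, the transport chain, had 53012 reads in mock, 12776 in the labelled library and 17810 in the other (log2 fold change -1.95), and SLC3A2, its heavy chain, had 14318, 4108 and 6465 (-1.71). The cytosolic chaperones did not follow the ER chaperones. Of 22 heat shock genes, 0 were at least 2-fold higher and 1 was lower, against 3.16% and 3.26% of all compared genes. The lower one was HSPA8, the constitutive cytosolic HSP70, from 35607 to 12682 reads (-1.56). The list median was -0.15, and the stress-inducible HSPA1A gave -0.01.

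Genes of DNA replication and of mitosis were listed apart. Of 52 DNA replication and G1/S genes compared, 45 were on the lower side, and the median log2 fold change was -0.49. At least 2-fold lower were 5 and higher 0, against 3.26% and 3.16% of all compared genes. At least 1.5-fold lower were 23, against 11.3% of all compared genes. UHRF1, which keeps DNA methylation at replication forks, went from 1276 to 252 reads (-1.78). CDC6, which loads the replicative helicase, went from 2025 to 693 reads (-1.31), and 3 helicase subunits, MCM4, MCM3 and MCM2, gave -1.17, -1.07 and -0.93. CCNE2, cyclin E2, had 148 and 31 reads (-1.16) and overlaps NDUFAF6. E2F1, the transcription factor of this phase, gave -0.63 and PCNA, the polymerase clamp, gave -0.77. The higher side held cyclin D3 (CCND3, 0.77) and the kinase inhibitor CDKN2B (0.68).

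Of 52 G2/M and mitosis genes, 42 were on the higher side and 10 on the lower, 6 were at least 1.5-fold higher and 0 past 2-fold, with a median of 0.23. The share past 1.5-fold was close to the 11.1% of all compared genes. BUB1, a spindle checkpoint kinase, gave the highest value at 0.91, and NEK2, a centrosome kinase, gave 0.75. CDK1 was at 0.27 and cyclin B1 (CCNB1) at 0.06. In the library labelled PSPC1-CT131 the 2 medians were -0.12 and -0.03. RNAs without poly-A tails, mostly replication-dependent histone mRNAs made in S phase, had a median of -0.83 over the 10 of 32 that were compared, and of -1.13 in the library labelled PSPC1-CT131. These levels depend on how RNA was selected for the library, and the part of that in the result was not tested.

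RNA processing and ribosome production were covered by 3 lists with medians below 0. Of 46 SR proteins, hnRNPs and splicing regulators, 7 were at least 2-fold lower and 0 higher, against 3.26% and 3.16% of all compared genes, 13 were on the higher side, and the median was -0.33. The 7 became 2 when scaled by TMM or by DESeq2 size factors and 3 with FPKM as deposited. SRSF1, the founding SR protein, went from 3426 to 1200 reads (-1.32), TRA2A from 777 to 258 (-1.29) and SRSF6 from 3056 to 1123 (-1.19). Of 56 ribosome biogenesis factors, 6 were at least 2-fold lower and 0 higher, with a median of -0.24, and against the same shares of all compared genes. Under TMM or DESeq2 scaling 1 was at least 2-fold lower. UTP14A, of the small subunit processome, gave -1.44, the box C/D snoRNP proteins NOP56 and NOP58 gave -1.13 and -1.03, and POLR1A, the large subunit of RNA polymerase I, gave -1.01. Of 78 cytosolic ribosomal protein genes 76 were on the lower side, but 0 were past 2-fold, and their median was -0.32. Their median lay between -0.32 and -0.09 under the other scalings and filters.

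MYC target genes had a median of -0.27, with 4 of 48 at least 2-fold lower, namely SLC7A5, SLC3A2, SRSF1 and TERT (-1.11), the catalytic subunit of telomerase. Among all compared genes 3.26% were at least 2-fold lower. MYC itself gave 0.42, from 23.2 to 31.4 FPKM. The E-box CACGTG was found in the 250 bases before 17 of 45 matched MYC targets, against 6.49% of all promoters. Since the label concerns a localization sequence, carriers between nucleus and cytoplasm were listed as well. Of 55 nuclear import and export genes, 0 were past 2-fold and the median was -0.07. The importins KPNB1 and KPNA2 gave -0.16 and 0.06, and the exportin XPO1 gave -0.09.

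Lipid synthesis and antioxidant genes had medians above 0. Of 30 cholesterol synthesis genes 1 was at least 2-fold higher, a share close to the 3.16% of all compared genes. It was the sterol carrier gene STARD4 (1.13), and the median was 0.26. It had 1549 reads in mock, 2638 in the labelled library and 742 in the other labelled one. FASN, fatty acid synthase, went from 20617 to 34826 reads (1.20) and SCD, stearoyl-CoA desaturase, from 296 to 628 FPKM (1.08). Among 29 NRF2 and antioxidant targets 5 were at least 2-fold higher and 0 lower, against 3.16% and 3.26% of all compared genes, with a median of 0.27. They were the carboxylesterase CES1 (1.40), the aldo-keto reductases AKR1C2 (1.36) and AKR1C3 (1.24), which have near-identical copies, transketolase (TKT, 1.26) and OSGIN1 (1.10). The core of the antioxidant element, TGAC followed by any 3 bases and GC, was before 5 of 20 matched members of this list and in 11% of all promoters, and was before 0 of the 4 matched genes at least 2-fold higher.

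Hypoxia and glycolysis genes showed a wide spread around a median of 0.12. At least 2-fold higher were 5 of 39 and lower 1, against 3.16% and 3.26% of all compared genes. The higher ones were the carbonic anhydrases CA12 (3.12) and CA9 (2.22), which serve pH control at the cell surface, the glucose transporter SLC2A3 (2.18), the enolase ENO2 (1.67) and the collagen prolyl hydroxylase P4HA2 (1.23). CA9 was at 1.60 FPKM in mock, and reached 11.1 here and 25.7 FPKM in the other labelled library, and overlaps ARHGEF39. Adrenomedullin (ADM), another hypoxia target, went the other way, from 918 to 202 reads, with 918 in the library labelled PSPC1-CT131 (log2 fold changes -1.86 and 0.41). VEGFA gave 0.70 and HIF1A gave 0.79.

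The epithelial and mesenchymal genes on which the study's question bears gave no common direction. Of 12 EMT transcription factors compared, 1 was at least 2-fold higher, SNAI1, with 317 and 555 reads (1.15), and the median was 0.09. Of 11 cadherins, catenins and vimentin, 0 were past 2-fold or past 1.5-fold. Vimentin (VIM) gave 0.56, N-cadherin (CDH2) gave -0.27, and E-cadherin (CDH1) had 17 reads in each library. The epithelial keratin pair KRT8 and KRT18 had 36133 and 7573 reads in mock, 12364 and 2479 in the labelled library (log2 fold changes -1.55 and -1.49), and 33399 and 6773 in the library labelled PSPC1-CT131. They lie side by side and overlap in the annotation. Other epithelial genes were higher, CLDN4 of tight junctions at 1.68 and DSG2 of desmosomes at 1.58, so that of 25 genes in this list 4 were higher and 5 lower by 2-fold. Across all compared genes the shares past 2-fold were 3.16% higher and 3.26% lower.

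Matrix and adhesion genes split in the same manner. Of 42 collagens and matrix glycoproteins, 3 were at least 2-fold higher, TNC (2.73), the laminin chain LAMB3 (2.01) and COL6A1 (1.21), and 4 at least 2-fold lower, MATN2 (-2.96), THBS1 (-1.48), THBS2 (-1.38) and biglycan (BGN, -1.07). Of 31 integrins and adaptors, ITGA5 (1.74), ITGB4 (1.31) and ITGA6 (1.09) were higher and ITGB2 (-1.77) and ITGA4 (-1.44) lower. ITGA5, part of the fibronectin receptor, went from 80.7 to 271 FPKM. Of 32 proteases and plasminogen activation genes, 4 were at least 2-fold higher and 0 lower, namely MMP9 (1.40), cathepsin L (CTSL, 1.29), urokinase (PLAU, 1.20) and its receptor PLAUR (1.17). MMP9 had 343 reads in mock and 722 in the labelled library. Among all compared genes 3.16% were at least 2-fold higher and 3.26% lower. In the library labelled PSPC1-CT131, 11 matrix genes were higher and 5 lower by 2-fold. For integrins and adaptors these counts were 6 and 1, and for proteases 4 and 0.

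Of 34 Wnt genes compared, WNT6 (1.21) and TCF7 (1.13) were at least 2-fold higher and the inhibitor DKK1 was lower, with 130 reads in mock and 8 in the labelled library (-2.06). CTNNB1, beta-catenin, gave 0.04. Among all compared genes 3.16% were at least 2-fold higher and 3.26% lower, which is the background for the counts of this paragraph. The 28 YAP and TEAD genes had a median of -0.41, with the tissue factor gene F3 (-1.26), the receptor kinase AXL (-1.24) and AMOT (-1.14) at least 2-fold lower and GADD45A (1.06) higher, and the 2 classical targets CCN1 and CCN2 at 0.45 and -0.52. Of 15 liver cancer stem cell markers compared, THY1 had 134 reads in mock and 4 in the labelled library (-1.90) and the drug transporter ABCB1 had 194 and 12 (-1.72), while CD44 was at -0.03. Among insulin-like growth factor genes, the binding protein IGFBP2 went from 14706 to 3757 reads (-1.91).

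Cytokine and kinase signalling genes included values of both signs. Of 38 NF-kB and cytokine genes, 6 were at least 2-fold higher and 5 lower, against 3.16% and 3.26% of all compared genes. CCL5 had 1076 reads in mock and 4388 in the labelled library (2.47), and IL1B had 382 and 928 (1.69), while CCL2 had 541 and 96 (-2.08). SOD2, the mitochondrial superoxide dismutase, had 13669 reads in mock, 32871 in the library labelled Mut-NLS-CT131 and 6604 in the library labelled PSPC1-CT131 (log2 fold changes 1.65 and -0.99), and overlaps ACAT2 and WTAP. CCL5 was high in both labelled libraries, and SOD2 and IL1B in this one. Of 31 MAPK and immediate-early genes, 3 were at least 2-fold higher, ETV4 (1.37), DUSP5 (1.08) and ATF3 (1.03), against 3.16% of all compared genes, 0 were lower, and the median was 0.40. With 5 in place of 1 added to FPKM 0 were at least 2-fold higher. Of 26 genes of the p53 response, CDKN1A (1.08) and GADD45A (1.06) were higher and GADD45B (-1.79) lower by 2-fold, against 3.16% and 3.26% of all compared genes.

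Some loci stood out by position. The tryptase genes lie together on chromosome 16, and all of them had more reads than mock in both labelled libraries. TPSAB1 (GRCh38, 1240696 to 1242554) is described above, and its near-identical neighbour TPSB2 had 54 reads in mock, 1044 in the library labelled Mut-NLS-CT131 and 499 in the library labelled PSPC1-CT131. TPSD1 had 8, 100 and 55 reads and TPSG1 had 5, 26 and 57. The nearby pseudogene PRSS29P had 1, 108 and 114 reads. The pseudogene TPSP2 had 0, 50 and 15 reads, and the Mut-NLS-CT131 read share was 19.8-fold higher against a floor of 3 reads in mock. The exact interval of its log2 read ratio ran from 3.96 upward. Reads of TPSAB1 and TPSB2 can be split between them in counting. Other mast cell markers did not go with the tryptases. KIT, FCER1A, CMA1, HDC and MS4A2 had 0 reads in both libraries and CPA3 had 1 and 0.

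HES3, a repressor of the HES family on chromosome 1 (GRCh38, 6244192 to 6245578), had 0 reads in mock, 198 in the library labelled Mut-NLS-CT131 and 0 in the library labelled PSPC1-CT131. Set against a floor of 3 reads in mock, its read share was 78.4-fold higher. The exact interval of its log2 read ratio ran from 5.98 upward. Its neighbours were not higher. ICMT gave a log2 fold change of -0.19, GPR153 of -0.56, RNF207 of -1.20 and ACOT7 of -0.15. Other HES genes differed less, HES4 with 1226 and 2550 reads (1.44) and HES1 with 359 and 456 (0.72). Among 22 Notch pathway genes compared 2, HES3 and HES4, were at least 2-fold higher, against 3.16% of all compared genes.

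The end of the long arm of chromosome 8 held the lowest stretch of 25 neighbouring genes. From EEF1D to BOP1, 22 of 25 genes were lower and 6 at least 2-fold lower, with a median log2 fold change of -0.57. The first and 99th percentiles over 11857 such windows were -0.33 and 0.31. EEF1D, a translation elongation factor, had 2995 and 1024 reads (-1.36), PARP10 had 4293 and 1569 (-1.31), HGH1 had 1987 and 714 (-1.26) and EXOSC4, of the RNA exosome, had 929 and 343 (-1.17). Over the last 60 genes compared on this chromosome 50 were lower, with a median of -0.43, and in the library labelled PSPC1-CT131 21 were lower, with a median of 0.09. These 60 include the window above, picked for its low median, and are no separate support for it. The genes of the lowest window had a median GC content of 63.6%. Fold changes of the library labelled PSPC1-CT131 rose with GC content. For the 2483 compared genes highest in GC content (58.2% to 84.3%), median log2 fold changes were 0.32 for PSPC1-CT131 and -0.06 for Mut-NLS-CT131. The lowest window lay below both, with medians of 0.09 and -0.57. How far GC content enters these window values was not tested. Whole chromosomes differed little, with medians between -0.10 (chromosome 21) and 0.10 (chromosome 3). The highest window, from MED23 to HECA on chromosome 6, had a median of 0.40 with 19 of 25 genes higher.

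**Figure D4:**
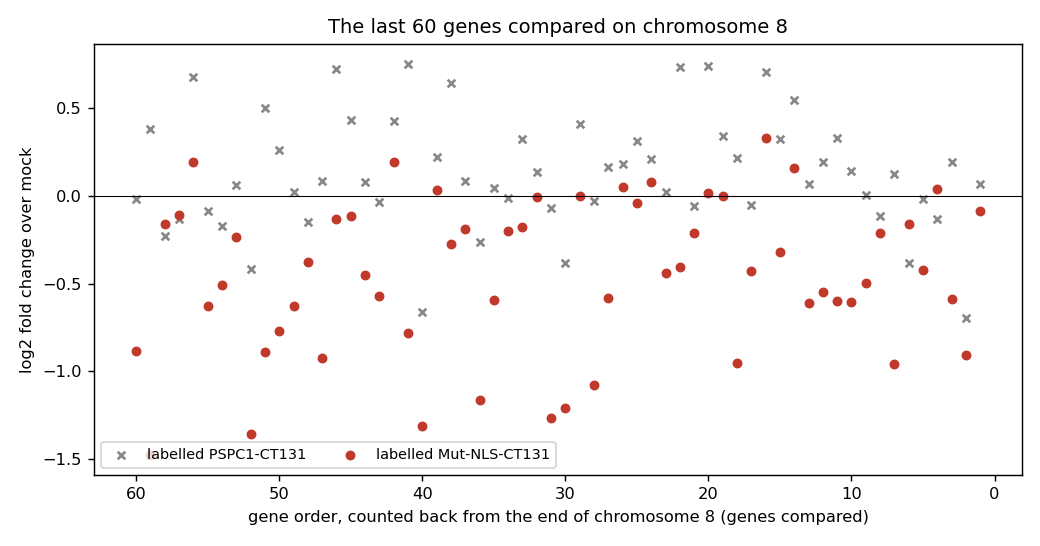
Log2 fold change over mock of the last 60 genes compared on chromosome 8, in their order, counted back from the end of the chromosome, in the library labelled Mut-NLS-CT131 (red) and the library labelled PSPC1-CT131 (grey crosses), 1 library each. Red points lie below 0 for 50 of the 60 genes and crosses for 21. The 60 genes include the window that was picked for its low median.

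PTK6 and its relatives and substrates, 22 of 28 compared, had a median of -0.02, with PTK6 (1.06), its adaptor STAP2 (1.07) and FASN (1.20) at least 2-fold higher and 0 lower. BCAR1, the adaptor p130Cas and a PTK6 substrate, gave -0.93, and the related kinase SRC gave 0.27. A list of ERBB, MET and other growth factor receptors with ligands had 17 genes compared. AXL (-1.24) and PDGFRB (-1.09), receptors outside the ERBB and MET groups, were at least 2-fold lower and 0 genes were higher. Of 73 nuclear-encoded respiratory subunits and 13 mitochondrially encoded mRNAs, 0 were past 2-fold, with medians of -0.14 and 0.15. Of 17 tumour antigen genes of the MAGE family and its relatives, CTAG2 was at least 2-fold lower, with 114 reads in mock and 3 in the labelled library, and 0 were higher. Of 8 HOX genes, 0 were past 2-fold. Among all compared genes 3.16% were at least 2-fold higher and 3.26% lower, which is the background for the counts of this paragraph.

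Markers of other cell types were read as whole lists. Of 16 endothelial markers 2 could be compared, MMRN2 (-0.75), which overlaps SNCG, and NOS3 (-0.61), and the list summed to 21.0 FPKM in mock and 13.9 FPKM in the labelled library. The defining markers PECAM1, CDH5, VWF and KDR were each under 1 FPKM in both libraries. Of 12 fibroblast and stellate cell markers 6 could be compared, with sums of 47.4 and 55.0 FPKM. THY1 and PDGFRB were at least 2-fold lower, COL1A2 gave 0.83, and DCN had 1 read in each library. Of 14 immune cell markers 2 could be compared, CD14 and ITGAM, with sums of 6.83 and 9.39 FPKM, and CD3E was at 0 reads in both. The mast cell list, tryptases included, summed to 53.3 FPKM in mock, 269.2 for Mut-NLS-CT131 and 181.1 for PSPC1-CT131. GATA2, a transcription factor of several blood lineages, made up 43.7, 48.6 and 65.5 FPKM of these sums. The part of other cell types in the results above was not tested.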

How the data were processed

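RNA-seq was compared between 1 Mahlavu mock library and 1 library labelled Mut-NLS-CT131, with 1 library labelled PSPC1-CT131 beside them. Per the submitters' processing notes, reads were aligned to GRCh38.p12 with TopHat2 2.0 and counted with HTSeq 0.6.1, and edgeR is also named. The authors deposited read counts and FPKM per gene for 58302 genes, and 8 lines without a gene were dropped. Gene positions were the same as in GENCODE 29 for 97.6% of shared genes. The deposited FPKM rest on 1 length per gene, common to all libraries. The labels describe poly-A selection and the methods rRNA depletion, which was not settled. The kit does not mark strand.

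FPKM were quantile-normalized over 8 libraries (SK-hep1 and Mahlavu). Genes whose mean over both libraries reached 1 FPKM were compared as log2 of FPKM + 1, and called at 2-fold. Exact 95% intervals of read ratios cover counting error only. With 1 library per group no test was run, in place of any count model, and the steps were tested on simulated data. Depth was 22685424 and 19085682 reads. TMM factors (edgeR 4.0.16) and size factors (DESeq2 1.42.0) served as alternatives, in R 4.3.3, and the rest was computed with Python 3.11.15, numpy 2.4.6, pandas 2.3.3 and scipy 1.17.1. Gene symbols were matched for 57532 genes.

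Named genes were the 15 largest rises and falls with a symbol and at least 100 reads in the higher library, PSPC1, PTK6, up to 6 members per list past 1.5-fold, any interferon-stimulated gene, the members that define a list and genes of outlying stretches. Genes on the Y chromosome, XIST and genes under 200 bases were left out. The members and the 49 lists were chosen with earlier results of these data known, and the ER stress element after values were seen. Members given only for a printed sequence or a locus were also chosen after their values were seen. The 2 Huh-7 samples were not used here. Some genes that this rule names are not reported here.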

Additional observations from a re-analysis of the deposited data

How the results depend on the processing

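The counts of genes at least 2-fold higher and lower, 393 and 405, became 629 and 655 with 0.1 in place of 1 added to FPKM, and 154 and 160 with 5 added, since the added value sets how many low genes pass. With FPKM scaled to a sum of 1000000, 340 were higher and 767 lower. Under the other alternatives (FPKM as deposited, quantile normalization over the 3 Mahlavu libraries, TMM, DESeq2 size factors, no filter, a mean of at least 5 FPKM, length and GC content taken out, and, added after the data were seen, at least 100 reads in the higher library) the higher count ran from 266 to 431 and the lower from 280 to 602. Between 22 and 31 interferon-stimulated genes were at least 2-fold lower under all of these. The list medians ran from -1.11 to -0.66 for interferon-stimulated genes, from 0.66 to 0.82 for the unfolded protein response, from -0.55 to -0.38 for DNA replication and from -0.62 to -0.41 for paraspeckles. Counts of members at least 2-fold lower ran from 1 to 6 for paraspeckles, 1 to 6 for ribosome biogenesis, 2 to 8 for splicing regulators and 3 to 5 for DNA replication, and counts at least 2-fold higher from 3 to 6 for the unfolded protein response and 0 to 5 for MAPK genes. NF-kB and cytokine genes had 3 to 7 higher and 3 to 8 lower. Wnt genes had 1 to 3 higher and 0 to 3 lower, and p53 genes 0 to 2 higher and 1 to 2 lower. The medians of 16 of the 49 lists changed sign under at least 1 alternative, among them the heat shock list (-0.24 to 0.03), the interferon receptors (-0.15 to 0.01), nuclear import and export (-0.10 to 0.06), epithelial keratins and junctions (-0.25 to 0.21) and TGF-beta ligands (-0.02 to 0.14). For 162 named genes past 2-fold, 1601 of 1601 alternative values kept their sign and 1440 stayed past 2-fold. These genes were picked as past 2-fold in the same libraries, and the alternatives process the same reads, so a change of sign was unlikely from the start. No paired analysis was possible because each group has 1 library and the result comes from no test.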

Other observations

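Further genes, chosen after their values were seen, also set the library labelled Mut-NLS-CT131 apart from mock, some of them from both other Mahlavu libraries. SPP1, which encodes the secreted matrix protein osteopontin, had 2112 reads in mock, 8543 in the library labelled Mut-NLS-CT131 and 1841 in the library labelled PSPC1-CT131, with log2 fold changes over mock of 2.40 and 0.04. PIM1, a serine/threonine kinase, had 993, 3536 and 1147 reads (2.27 and 0.61). TXNIP, a thioredoxin inhibitor, had 754, 1166 and 417 reads (1.01 and -0.32). IRF5, an interferon regulatory factor, was higher in both labelled libraries, with 45 reads in mock, 285 in the library labelled Mut-NLS-CT131 and 177 in the library labelled PSPC1-CT131 (2.31 and 1.90). The polyubiquitin gene UBB had 3083, 958 and 4493 reads (-1.58 and 0.72). It was the one gene of 32 proteasome and ubiquitin genes compared that was at least 2-fold lower, against 3.26% of all compared genes. The list median was -0.17.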
